A study of Mus musculus with 6 samples.

Results

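The genes described here are 43 genes of fatty acid uptake, activation, oxidation, synthesis, desaturation and elongation, among 35932 genes in the deposited count table. They were chosen by symbol, and all 43 had a row. RNA sequencing had been run on mouse bone marrow blasts of an acute myeloid leukemia with the genotype MLL-AF9+, a fusion of Kmt2a with Mllt3, in 2 groups of 3 libraries. The resistant blasts were labelled with Cytarabin+Doxorubicin, a nucleoside analog given with an anthracycline, and the sensitive blasts were labelled as given the vehicle. All 6 libraries thus carry the fusion, and resistance and drug exposure go together in the labels, so they cannot be told apart. The labels give no strain, dose, age or time of harvest, do not say how the fusion was introduced, and do not say whether replicates were separate animals, so the p-values measure the spread between libraries, which may be technical.

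Fatty acids enter cells through carriers and membrane proteins, are bound by small cytosolic proteins, and are activated to acyl-CoA by long-chain acyl-CoA synthetases. The carnitine shuttle carries long acyl chains into mitochondria, where beta-oxidation shortens them in a cycle of 4 reactions and passes electrons through electron transfer flavoprotein to the respiratory chain. Peroxisomes shorten other chains, such as very long ones. Synthesis runs in the cytosol from citrate through acetyl-CoA and malonyl-CoA to palmitate, which elongases and desaturases of the endoplasmic reticulum extend and unsaturate. In acute myeloid leukemia, fatty acid oxidation has been studied as a source of energy for blasts that survive chemotherapy.

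In resistant blasts the delta-5 and delta-6 desaturase genes Fads1 and Fads2, which make polyunsaturated fatty acids, were 1.84-fold and 3.23-fold lower than in sensitive blasts. Several genes for the later steps of mitochondrial beta-oxidation were higher by small amounts, led by Hadh at 1.34-fold. The peroxisomal thiolase gene Acaa1a, the fatty acid transporter gene Slc27a1 and the nuclear receptor gene Ppard were lower. The gene for the entry enzyme of mitochondria, Cpt1a, did not pass the test, and its level varied more between resistant libraries than between the groups. Of the 43 genes, 38 passed the filter on low counts, and of these 6 were higher (15.8%), 7 lower (18.4%) and 25 did not pass at the 0.05 threshold. All adjusted p-values are from a quasi-likelihood fit in edgeR, with Benjamini-Hochberg adjustment over 13414 genes. Among all 13414 tested genes 39.2% were called, 18.5% as higher and 20.8% as lower, so the share of members called (34.2%) was close to that of all genes. The median log2 fold change, resistant over sensitive, was 0.04 over the 38 members and -0.01 over all tested genes. The resistant libraries lay above all sensitive ones in 11 of the 38 members (28.9%), against 25.2% of all tested genes, and below them in 8 members (21.1%), against 27.2%. In bulk RNA, fewer cells of a type and less RNA per cell cannot be told apart.

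**Figure D1:**
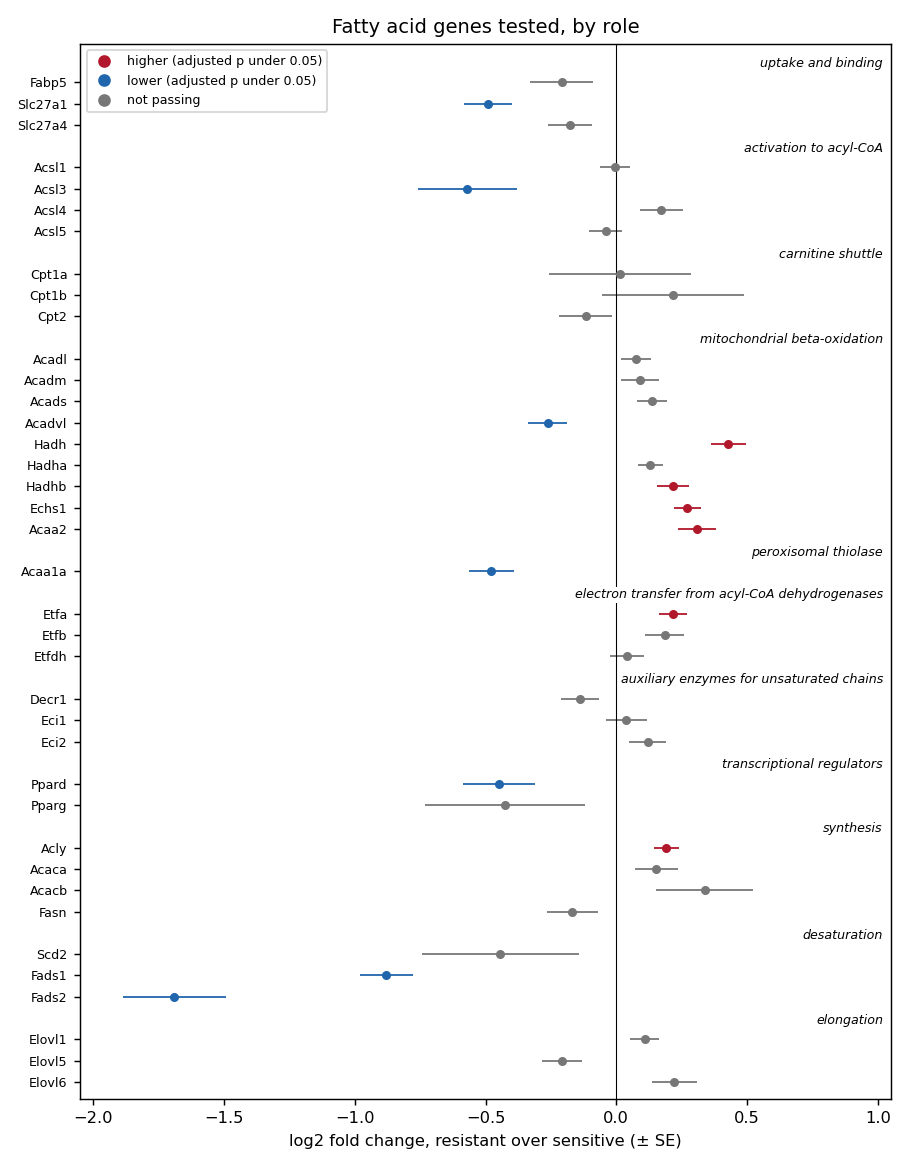
Log2 fold change, resistant over sensitive, for the 38 tested genes, grouped by role; points are edgeR estimates and bars ± 1 SE. Fads2 (-1.69) and Fads1 (-0.88) lie farthest to the left, and the genes past the test on the right side lie between 0.19 and 0.43.

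Library totals ran from 22206341 to 31856009 counts, and 3 counts, the limit that a count of 0 allows, equalled 0.0945 to 0.137 CPM (a gene's counts divided by the TMM-scaled library total). All 14 markers of blasts and progenitors, among them Kit, Cd34 and Mpo, passed the filter. Of these, 3 were higher (21.4%, against 18.5% of all tested genes), namely Cd34, Hoxa9 and Ctsg. Another 5 were lower (35.7%, against 20.8%), namely Kit, Cebpa, Itgam, Flt3 and Sox4. Cebpa changed most among the 14, with a log2 fold change of -1.93 ± 0.10 (SE). The 4 globin genes summed to 0.126 to 1.32 CPM in resistant and 42.2 to 73.2 CPM in sensitive libraries. The 14 markers of mature neutrophils summed to 57.5 to 74.3 CPM and 298 to 322 CPM. Of 13 tested, 12 were lower (92.3%, against 20.8% of all tested genes) and 0 higher. The adipocyte markers Adipoq, Lep and Cidec and the endothelial markers Emcn and Gpihbp1 were at 0 in all 6 libraries. The 10 adipocyte markers summed to 28.1 to 30.5 CPM in resistant and 29.9 to 34.9 CPM in sensitive libraries, nearly all of it from Lipe, and the 11 endothelial markers to 9.86 to 11.7 CPM and 13.7 to 14.5 CPM. The 10 markers of eosinophils, basophils and mast cells summed to 1153 to 1550 CPM in resistant and 549 to 601 CPM in sensitive libraries. Of 9 tested, 3 were higher (33.3%; Hdc, Prg2 and Prg3, which gave most of the sum) and 3 lower (33.3%; Cpa3, Mcpt8 and Ms4a2). The 12 macrophage markers summed to 359 to 451 CPM and 308 to 352 CPM, mostly from Vcam1 and Adgre1, with 1 of 9 higher (11.1%) and 1 lower (11.1%). The macrophage genes C1qa, C1qb and C1qc had group means of 0.384 to 0.671 CPM. The part of these other cells in the results below was not tested. Resistant library 2 stood apart from libraries 1 and 3 on the second principal component (-27.6, against 11.1 and 15.3). For Acsl3, Cpt1a, Scd2, Fasn, Elovl5, Slc27a4 and Fabp5, results are given with and without it. In Scd2, Fasn, Elovl5, Slc27a4 and Fabp5, resistant libraries 1 and 3 lay below all sensitive ones. Leaving out library 2 then separates the groups by construction, so the results of these genes without it are descriptions.

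Uptake was represented by few transcripts. Cd36, a scavenger receptor that takes up long-chain fatty acids, had 3, 3 and 1 counts in resistant libraries 1, 2 and 3, against 6, 1 and 5 counts in sensitive libraries 1, 2 and 3. Fabp4, the fatty acid binding protein of adipocytes and macrophages, had 3, 1 and 2 counts in resistant and 3, 2 and 1 counts in sensitive libraries. Both genes were at or near the limit of detection in both groups and were not tested. Its paralog Fabp5 held nearly all of the pair's transcript per length, 99.5% ± 0.24 in resistant and 99.6% ± 0.18 in sensitive libraries (SD, n = 3 each), and had a log2 fold change of -0.21 ± 0.12 (SE, adjusted p = 0.196).

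Slc27a1, which encodes the fatty acid transport protein FATP1, had 12.1, 13 and 14.2 CPM in the resistant libraries, against 18, 18.1 and 18.9 CPM in the sensitive libraries. All 3 resistant libraries lay below all 3 sensitive ones, and the gene fell by 0.49 ± 0.09 on the log2 scale (SE, adjusted p = 0.00206). Slc27a4, the related gene of FATP4, had 22.7, 25.1 and 21.9 CPM in resistant and 27.4, 24.6 and 26.6 CPM in sensitive libraries. The 2 groups overlapped, and Slc27a4 did not pass (-0.18 ± 0.08, adjusted p = 0.121).

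The acyl-CoA synthetase family was carried by Acsl5. Per length (counts per kilobase of exon, scaled to the same total in each library), Acsl5 gave 62% ± 1.48 of the summed level of the 4 Acsl genes in resistant libraries and 62.2% ± 0.73 in sensitive libraries. Acsl1 gave 19% ± 1.89 and 18.6% ± 0.23, Acsl4 14.2% ± 0.96 and 12.3% ± 0.43, and Acsl3 4.78% ± 1.4 and 6.95% ± 0.55, each in resistant and then in sensitive libraries. Acsl5 and Acsl1 did not pass the test (-0.04 ± 0.06 and -0.01 ± 0.06 on the log2 scale, adjusted p = 0.643 and 0.947).

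Acsl3, whose product sits on the endoplasmic reticulum and lipid droplets, had 12.8, 18.9 and 9.63 CPM in resistant libraries, against 20.1, 21.9 and 19.1 CPM in sensitive libraries. Its groups did not overlap, although resistant library 2 came close to the lowest sensitive library, and it fell by 0.57 ± 0.19 on the log2 scale (adjusted p = 0.036). The call was lost without resistant library 1 or 3 or any 1 of the sensitive libraries (adjusted p = 0.0616 to 0.111), and without resistant library 2 the gene fell by 0.85 (adjusted p = 0.00144; range over 14 alternatives 0.00135 to 0.111). Acsl4, which prefers arachidonic acid and whose product is known for its part in ferroptosis, had 48.2, 57.1 and 46.2 CPM in resistant and 44.9, 44.6 and 44.8 CPM in sensitive libraries. All resistant values lay above the sensitive ones without passing the test (0.17 ± 0.08, adjusted p = 0.12), and the gene passed without resistant library 3 (adjusted p = 0.0466; range over 14 alternatives up to 0.349). Reads that Acsl3 shares with Utp14b, whose exons overlap its own on the same strand over 244 bases, could not be told apart.

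None of the 3 carnitine shuttle genes passed the test. Cpt1a, the malonyl-CoA-sensitive enzyme that commits acyl chains to mitochondria, had 80.7, 41.1 and 115 CPM in resistant libraries, against 92.9, 67.5 and 74.4 CPM in sensitive libraries. The lowest and the highest of the 6 values were both in resistant blasts, in libraries 2 and 3, and the log2 fold change was 0.01 ± 0.27 (adjusted p = 0.977). Without resistant library 2 it was 0.32 (adjusted p = 0.142), and without resistant library 3 it was -0.34 (adjusted p = 0.302; range over 14 alternatives 0.142 to 0.999). An SE of 0.27 leaves room for a change in either direction. Cpt1b, the muscle isoform, ranged from 3.28 to 7.75 CPM in resistant and from 3.78 to 5.69 CPM in sensitive libraries and gave 14.1% ± 4.48 and 12.3% ± 3.79 of the Cpt1 transcript per length. Its log2 fold change was 0.22 ± 0.27 (adjusted p = 0.556). Of its exon bases, 81.4% also belong to another annotated gene model on the same strand, which has no row in the deposited counts. Cpt2, the inner-membrane enzyme, had a log2 fold change of -0.12 ± 0.10 (adjusted p = 0.393).

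Mitochondrial beta-oxidation held 4 of the 6 members that were higher. Of its 9 genes, 4 were higher (44.4%, against 18.5% of all tested genes), 1 lower (11.1%, against 20.8%) and 4 did not pass. The members were chosen with earlier results of these data known, so these shares are descriptions. The summed level of the 9 genes was 877 to 932 CPM in resistant libraries and 796 to 816 CPM in sensitive libraries. The first step, the acyl-CoA dehydrogenases, was split by gene. Acadvl, which takes very long chains, had 37.1, 38.9 and 43.5 CPM in resistant libraries, against 49.7, 46.1 and 47.4 CPM in sensitive libraries. All 3 resistant values were lower, and the gene fell by 0.26 ± 0.08 on the log2 scale (adjusted p = 0.0192). That call was lost without resistant library 1 or 2 or sensitive library 1 or 3 (adjusted p = 0.0544 to 0.0689; range over 14 alternatives 0.00728 to 0.0689). The exons of Acadvl overlap those of Dvl2 on the other strand over 1151 of 2686 bases, and Dvl2 itself had a log2 fold change of -0.23 ± 0.14 (adjusted p = 0.226); whether the counting used strand is not given.

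The dehydrogenase genes for long, medium and short chains did not pass. Acadl had a log2 fold change of 0.08 ± 0.06 (adjusted p = 0.336), Acadm of 0.09 ± 0.07 (adjusted p = 0.344) and Acads of 0.14 ± 0.06 (adjusted p = 0.0819). Acads nevertheless lay higher in all 3 resistant libraries, at 91.4, 97.3 and 101 CPM, against 87.1, 87.1 and 89.7 CPM in the sensitive libraries. It passed without resistant library 1 (adjusted p = 0.0321; range over 14 alternatives up to 0.224).

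Hadh, the dehydrogenase for short and medium 3-hydroxyacyl chains, had 75.8, 74.1 and 85.4 CPM in resistant libraries, against 59.3, 56.9 and 58.6 CPM in sensitive libraries. The groups stood well apart, and the gene rose by 0.43 ± 0.07 on the log2 scale (adjusted p = 0.000724). Echs1, the short-chain enoyl-CoA hydratase, had 142, 131 and 136 CPM in resistant and 113, 113 and 112 CPM in sensitive libraries. It rose by 0.27 ± 0.05 (adjusted p = 0.00248), while Paox, whose exons overlap it on the other strand over 142 bases, fell by 0.40 ± 0.08. Acaa2, the mitochondrial thiolase, had 58.5, 58 and 67.2 CPM in resistant libraries, against 49.3, 47.7 and 51.2 CPM in sensitive libraries. It rose by 0.31 ± 0.07 (adjusted p = 0.00744), and resistant library 3 was the highest for both Hadh and Acaa2. The calls of Hadh, Echs1 and Acaa2 held in all 14 alternative settings.

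Hadha and Hadhb encode the alpha and beta subunits of the mitochondrial trifunctional protein, which carries out the last 3 steps on long chains. They are neighbours on chromosome 5 and are read in opposite directions from starts that lie 273 bases apart in RefSeq (GRCm38.p6). The promoter window of Hadhb is shown because its first 228 bases are also in the window of Hadha; it runs from 250 bases before to 50 bases after the start, on the plus strand at chr5:30155003-30155302, with capitals for GGGCGG on either strand.
Hadhb: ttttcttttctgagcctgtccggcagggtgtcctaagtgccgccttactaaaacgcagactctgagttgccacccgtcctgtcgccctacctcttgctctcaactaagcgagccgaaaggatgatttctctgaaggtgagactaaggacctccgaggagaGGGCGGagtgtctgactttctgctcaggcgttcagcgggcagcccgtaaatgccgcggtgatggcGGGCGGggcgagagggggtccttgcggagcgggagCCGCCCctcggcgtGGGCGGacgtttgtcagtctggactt

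Both subunit genes lay higher in all resistant libraries. Hadhb had 136, 119 and 133 CPM in resistant libraries, against 114, 110 and 110 CPM in sensitive libraries, and rose by 0.22 ± 0.06 on the log2 scale (adjusted p = 0.0166). Hadha had 209, 216 and 216 CPM in resistant libraries, against 199, 196 and 192 CPM in sensitive libraries, and did not pass (0.13 ± 0.05, adjusted p = 0.0562). The 2 estimates thus lie on either side of the threshold while pointing the same way, and the difference between them was not tested. Hadhb lost its call without sensitive library 2 or 3 (adjusted p = 0.0778 and 0.0648; range over 14 alternatives 0.00459 to 0.0778), and Hadha passed without resistant library 1 (0.0427), with 2 other scalings, with a CPM filter and with DESeq2 (range 0.0387 to 0.189).

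Electrons from the dehydrogenases pass to electron transfer flavoprotein, whose subunits are encoded by Etfa and Etfb. Etfa had 114, 107 and 112 CPM in resistant libraries, against 97.9, 95.7 and 93.3 CPM in sensitive libraries. It rose by 0.22 ± 0.05 on the log2 scale with groups that did not overlap (adjusted p = 0.0086), and the call was lost without sensitive library 3 (adjusted p = 0.0503; range over 14 alternatives 0.00246 to 0.0503). Etfb, per length the highest of the 43 genes in both groups (a level of 651 ± 56.1 on that scale in resistant and 600.3 ± 20.2 in sensitive libraries), had 248, 288 and 305 CPM in resistant and 236, 249 and 255 CPM in sensitive libraries. Resistant library 1 lay within the sensitive range, and Etfb did not pass (0.19 ± 0.07, adjusted p = 0.0706). Without that library it passed (adjusted p = 0.00642; range over 14 alternatives up to 0.213), and with all 6 libraries it passed in 3 alternatives, among them no filter on low counts (0.0361) and DESeq2 (0.0332). Of its exon bases, 53% also belong to another gene model on the same strand, which has no row in the deposited counts. How reads from these bases were counted is not given, so the level of Etfb per length is uncertain. Etfdh, the ubiquinone oxidoreductase that takes the electrons, was at 0.04 ± 0.06 (adjusted p = 0.662).

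The auxiliary enzymes that allow unsaturated chains into the cycle did not pass the test. Decr1, the dienoyl-CoA reductase, had a log2 fold change of -0.14 ± 0.07 (adjusted p = 0.154), with 28.8, 28.9 and 28.5 CPM in resistant libraries, all below the 33.6, 29.9 and 31.4 CPM of the sensitive libraries. The enoyl-CoA isomerase genes Eci1 and Eci2 were at 0.04 ± 0.08 and 0.12 ± 0.07 (adjusted p = 0.725 and 0.218), with groups that overlapped.

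**Figure D2:**
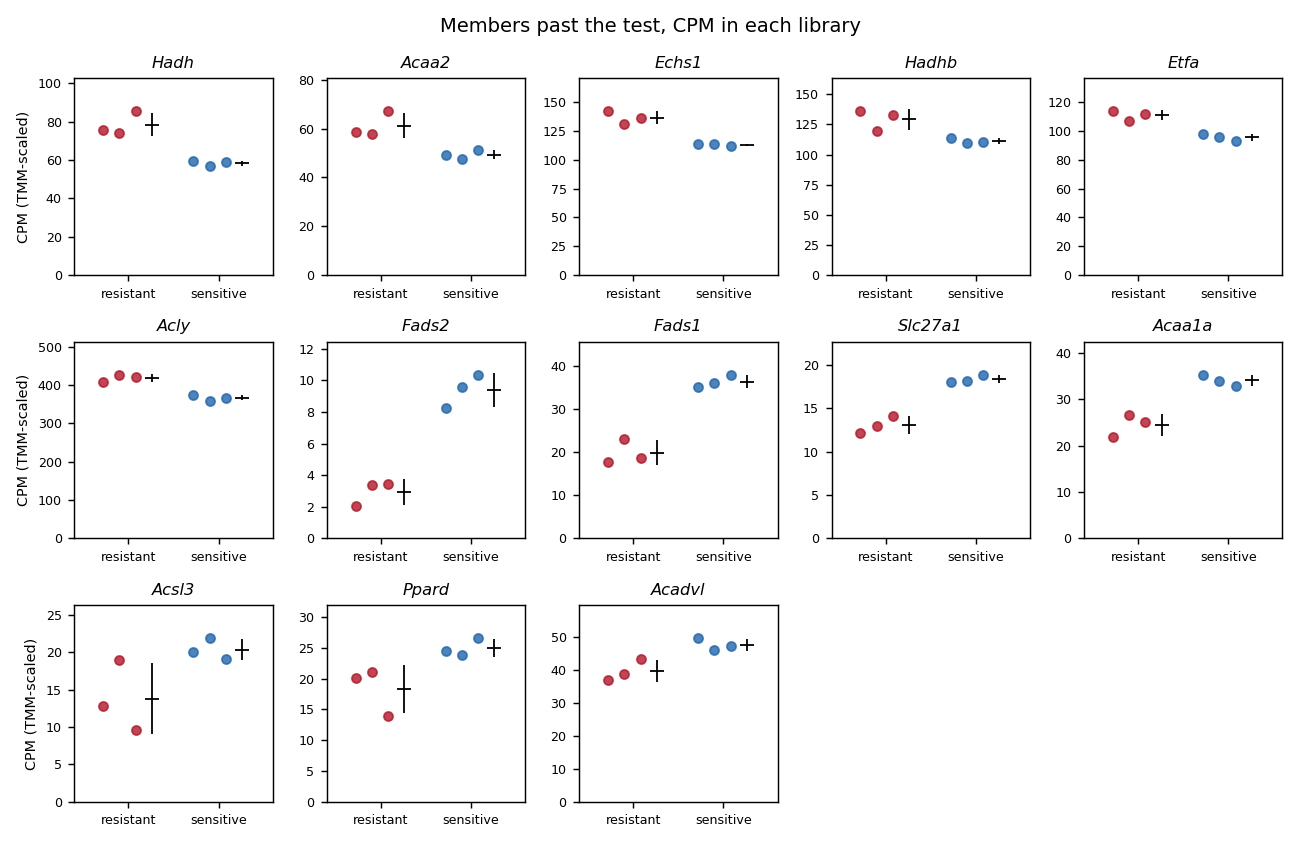
CPM in each library for the 13 members past the test, with the mean ± SD of 3 libraries beside each group; y axes start at 0 and differ between panels. In all 13 panels the resistant and sensitive points do not overlap, most widely for Fads2 and Fads1, while the 6 higher genes differ by less than 1.5-fold.

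The peroxisomal member was lower. Acaa1a, the peroxisomal 3-ketoacyl-CoA thiolase, had 22, 26.6 and 25 CPM in resistant libraries, against 35.3, 34 and 32.9 CPM in sensitive libraries. The groups stood apart, and it fell by 0.48 ± 0.09 on the log2 scale (adjusted p = 0.00154), a call that held in all 14 alternatives. Its exons overlap those of Myd88 on the other strand over 290 bases, and Myd88 was at 0.12 ± 0.07 (adjusted p = 0.209). Reads may also be shared with its close paralog Acaa1b, which averaged 0.885 CPM in resistant and 1.59 CPM in sensitive libraries. The promoter window of Acaa1a is shown as that of a lower gene with several matches to common promoter motifs (RefSeq, GRCm38.p6, plus strand, chr9:119341044-119341343). Capitals mark CCAAT and GGGCGG on either strand.
Acaa1a: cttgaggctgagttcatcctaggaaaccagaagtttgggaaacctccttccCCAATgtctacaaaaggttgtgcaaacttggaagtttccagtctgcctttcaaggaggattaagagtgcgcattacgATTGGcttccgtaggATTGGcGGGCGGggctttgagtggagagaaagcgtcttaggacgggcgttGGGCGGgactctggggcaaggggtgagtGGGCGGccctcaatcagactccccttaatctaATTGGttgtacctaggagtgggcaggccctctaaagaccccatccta

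Of 17 tested genes of a further peroxisomal list, 2 were higher, 8 lower and 7 did not pass, with a median log2 fold change of -0.13. Abcd2, a peroxisomal transporter of very long-chain acyl-CoA, had 40.7, 33.7 and 41.6 CPM in resistant libraries, against 113, 119 and 118 CPM in sensitive libraries, and fell by 1.59 ± 0.08 on the log2 scale (adjusted p = 2.9e-07). Phyh, the phytanoyl-CoA hydroxylase of alpha-oxidation, fell by 0.99 ± 0.09, and Acox3, an oxidase of branched chains, by 0.60 ± 0.07. The 2 higher genes, named after their values were seen, were Pecr (0.87 ± 0.12, adjusted p = 0.0003) and Hacl1 (0.54 ± 0.08, adjusted p = 0.000351). The list's share of calls was 58.8%, against 39.2% of all tested genes. Of its tested genes 47.1% were lower, against 20.8%, and 11.8% higher, against 18.5%. The list was chosen with earlier results of these data known, so these shares are descriptions. Its sum was 604 to 613 CPM in resistant and 762 to 768 CPM in sensitive libraries.

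Of the 4 genes of palmitate synthesis, 1 was higher (25%, against 18.5% of all tested genes) and 3 did not pass. Of them 0 were lower, against 20.8% of all tested genes. Acly, which makes cytosolic acetyl-CoA from citrate, had 407, 427 and 422 CPM in resistant libraries, against 373, 360 and 367 CPM in sensitive libraries. All resistant values were higher, and the gene rose by 0.19 ± 0.05 on the log2 scale (adjusted p = 0.00993), a call that was lost without sensitive library 2 (adjusted p = 0.0646; range over 14 alternatives 0.000898 to 0.0646). Acaca, the acetyl-CoA carboxylase of the cytosol, had 88.8, 112 and 100.3 CPM in resistant libraries, against 95.1, 89.3 and 85.8 CPM in sensitive libraries, and did not pass (0.15 ± 0.08, adjusted p = 0.159). It passed without resistant library 1 (adjusted p = 0.0291; range over 14 alternatives up to 0.444). Per length, Acaca gave 94.4% ± 0.81 of the carboxylase transcript in resistant and 95% ± 0.67 in sensitive libraries, and Acacb, the mitochondrial form, gave the rest (0.34 ± 0.19 on the log2 scale, adjusted p = 0.175).

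Fasn, the fatty acid synthase, had 201, 256 and 187 CPM in resistant libraries, against 244, 241 and 239 CPM in sensitive libraries. Resistant libraries 1 and 3 lay below all sensitive libraries and resistant library 2 above them, so the gene did not pass (-0.17 ± 0.10, adjusted p = 0.195). Without resistant library 2 it fell by 0.31 (adjusted p = 0.00361, range over 14 alternatives up to 0.581). Leaving that library out separates the groups by construction, so that fit is a description.

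The desaturase genes held the 2 largest changes among the 38 tested members. Fads2, the delta-6 desaturase that starts the conversion of linoleic and alpha-linolenic acid, had 2.02, 3.37 and 3.43 CPM in resistant libraries, against 8.22, 9.57 and 10.4 CPM in sensitive libraries. It fell by 1.69 ± 0.20 on the log2 scale (adjusted p = 9.86e-05). Fads1, the delta-5 desaturase that follows it on the way to arachidonic acid, had 17.6, 23.1 and 18.7 CPM in resistant libraries, against 35.1, 36 and 38 CPM in sensitive libraries. It fell by 0.88 ± 0.10 (adjusted p = 9.47e-05). For both genes the highest resistant library was well below the lowest sensitive one, and the calls held in all 14 alternatives, with log2 fold changes of -1.83 to -1.46 for Fads2 and -0.995 to -0.80 for Fads1. These were the 2 members past the test that changed by more than 1.5-fold, a size that 1901 of the 5260 called genes of the whole table passed. Their neighbour on chromosome 19, Fads3, had 5, 8 and 3 counts in resistant libraries, against 35, 9 and 18 counts in sensitive libraries, too few to be tested.

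The promoter window of Fads2, the member with the largest change, is shown as RefSeq gives it (GRCm38.p6, minus strand, chr19:10101454-10101753), with capitals for GGGCGG. It held no CCAAT and no AGGTCA on either strand.
Fads2: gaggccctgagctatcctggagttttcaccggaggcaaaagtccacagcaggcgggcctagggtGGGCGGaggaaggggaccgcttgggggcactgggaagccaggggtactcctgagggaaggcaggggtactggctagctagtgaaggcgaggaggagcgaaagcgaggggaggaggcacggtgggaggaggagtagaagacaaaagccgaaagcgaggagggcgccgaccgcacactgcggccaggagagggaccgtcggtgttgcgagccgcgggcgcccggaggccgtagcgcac

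Across the 35 members with a promoter window in the RefSeq table (41 windows), short motifs were counted on both strands as a description. GGGCGG, the GC box, was in 68.3% of the members' windows, against 35.7% of all 32851 windows, and CCAAT, the NF-Y box, in 51.2% against 37.4%. The 32851 windows were not limited to genes tested here, while 38 of the 43 members were tested. AGGTCA, the hexamer bound by nuclear receptors such as the PPARs, was in 26.8% against 16.3%, and AGGTCANAGGTCA, the same hexamer as a direct repeat, in 0 of 41 windows against 0.0396%. TNAAGGTCA, the extended hexamer of estrogen-related receptors, which contains AGGTCA, was in 0 windows against 1.28%. TCACNCCAC, the core of a sterol response element, was in 1 window, that of Acsl1 (2.44% against 1.24%). CACGTG, an E-box, was in 4.88% against 7.15%, GAGGAAGT, the core of a PU.1 site, in 4.88% against 3.2%, and the NRF1 site in 9.76% against 6.23%. Acaa1a held 4 matches to CCAAT and 3 to GGGCGG, Hadhb 4 and Fads2 1 to GGGCGG.

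Stearoyl-CoA desaturation, which makes monounsaturated chains, rested on Scd2. Scd1, the main isoform of liver and fat in mice, had 0, 1 and 1 counts in resistant and 0, 4 and 1 counts in sensitive libraries and was not tested. Scd2 had 209, 480 and 166 CPM in resistant libraries, against 356, 418 and 386 CPM in sensitive libraries. Resistant library 2 was the highest of all 6 and resistant libraries 1 and 3 the lowest, so that the resistant range enclosed the sensitive one and the gene did not pass (-0.44 ± 0.30, adjusted p = 0.268). Without resistant library 2, Scd2 fell by 1.04 (adjusted p = 0.000136; range over 14 alternatives up to 0.674). As libraries 1 and 3 were the lowest of all, that fit describes their order and is no separate support. With all 6 libraries Scd2 passed in 2 of the alternatives, 1 of them with no filter on low counts (0.0403).

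The elongase genes did not pass. Elovl5, which extends polyunsaturated chains, had 83.7, 100.2 and 83.6 CPM in resistant libraries, against 104, 108 and 97.4 CPM in sensitive libraries. Only resistant library 2 reached the sensitive range, and the log2 fold change was -0.21 ± 0.08 (adjusted p = 0.0535). Without that library the gene fell by 0.29 (adjusted p = 0.00634; range over 14 alternatives up to 0.182). As the other resistant libraries lay below all sensitive ones, that fit is a description. With all 6 libraries Elovl5 passed in 6 of the alternatives, among them library totals (0.0317), no filter on low counts (0.0288), DESeq2 (0.0387) and limma-voom (0.0473). Elovl6, which extends palmitate to stearate, had 17.1, 17.7 and 18.8 CPM in resistant libraries, against 15.9, 15.2 and 14.8 CPM in sensitive libraries. It was higher in all resistant libraries without passing (0.22 ± 0.09, adjusted p = 0.0637), as was Elovl1, an elongase of very long chains (0.11 ± 0.06, adjusted p = 0.147).

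**Figure D3:**
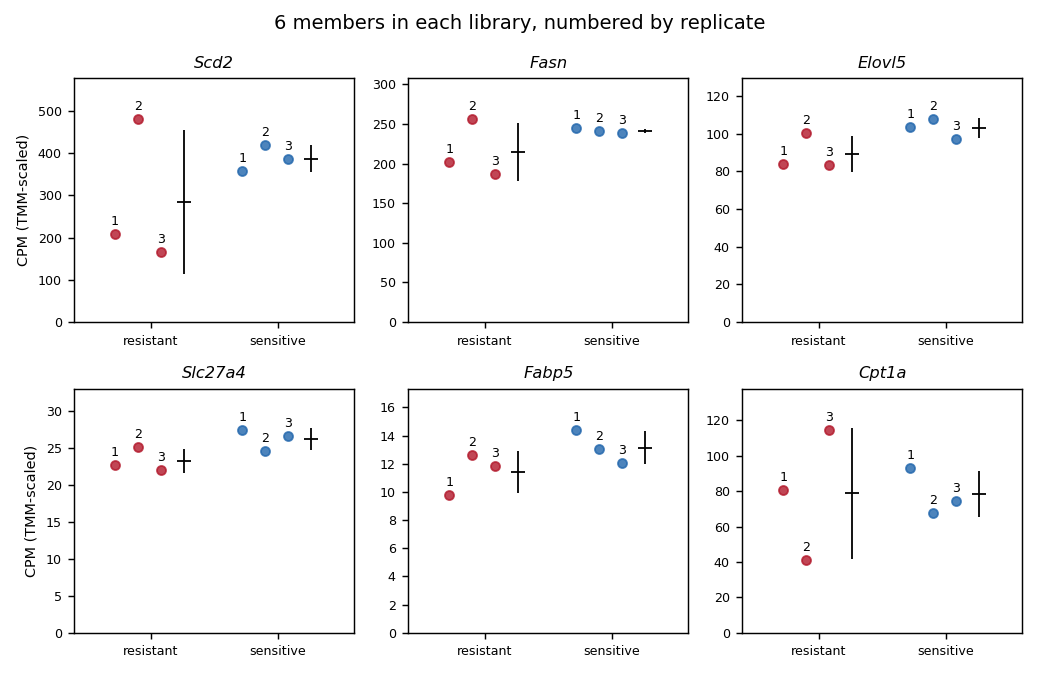
CPM in each library, numbered by replicate, for the 5 members in which resistant libraries 1 and 3 lay below all sensitive libraries and resistant library 2 did not, and for Cpt1a; bars are the mean ± SD of 3 libraries. Scd2 is at 480 CPM in resistant library 2, against 166 to 209 in the other 2, and Cpt1a at 41.1 CPM, against 80.7 to 115.

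Scd2, Fasn, Elovl5, Slc27a4 and Fabp5 shared this pattern, in which resistant libraries 1 and 3 lay below all sensitive libraries and resistant library 2 did not. It held in 5 of the 38 tested members, against 602 of 13414 tested genes (4.49%). For some members it rested on small margins to the lowest sensitive value. In library 2 Slc27a4 had 25.08 against 24.59 CPM and Elovl5 100.2 against 97.41 CPM. In library 3 Fabp5 had 11.82 against 12.03 CPM. The corresponding pattern with resistant library 1 or 3 as the exception held in 0 members (4.37% of genes) and in 1, Pparg (3% of genes). In the upward direction, with 2 resistant libraries above all sensitive ones and the other not, the exception was resistant library 1 in 4 members (Etfb, Eci1, Acaca and Acacb; 4.36% of genes), library 2 in 1 (Acadl; 4.83%) and library 3 in 1 (Acadm; 3.82%). The ratio of Scd2 to Cpt1a counts was 2.59, 11.7 and 1.45 in resistant libraries 1, 2 and 3, against 3.84, 6.19 and 5.18 in the sensitive libraries. Of all libraries, resistant library 2 was the highest for Scd2 and the lowest for Cpt1a. The high ratio there follows from this choice of genes and adds nothing to their values. What sets resistant library 2 apart was not tested. Without it, Slc27a4 had a log2 fold change of -0.23 (adjusted p = 0.0624) and Fabp5 of -0.28 (adjusted p = 0.112), so neither passed. Srebf1, which encodes the transcription factor SREBP1 of fatty acid synthesis genes and is named here after its values were seen, had 89.3, 120 and 91.2 CPM in resistant libraries, against 107, 125 and 124 CPM in sensitive libraries (-0.25 ± 0.11, adjusted p = 0.09).

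Among the transcriptional regulators, Ppard was the PPAR gene with most transcript. It had 20.1, 21 and 13.8 CPM in resistant libraries, against 24.5, 23.8 and 26.6 CPM in sensitive libraries. All resistant values were lower, library 3 most of all, and the gene fell by 0.45 ± 0.14 on the log2 scale (adjusted p = 0.0247). The call was lost without sensitive library 1 or 3 (adjusted p = 0.0599 and 0.0844; range over 14 alternatives 0.00264 to 0.0844). Ppara, the receptor that drives oxidation genes in liver, had 1, 0 and 0 counts in resistant and 3, 3 and 0 counts in sensitive libraries, and the coactivator gene Ppargc1a had 7, 3 and 0 and 2, 5 and 9 counts. Neither was tested. Pparg, the receptor of fat cells, had 0.599, 0.592 and 0.936 CPM in resistant libraries, against 1.14, 0.784 and 0.93 CPM in sensitive libraries, with groups that overlapped (-0.43 ± 0.31, adjusted p = 0.295).

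Other lists of lipid genes were set beside the members, and of their 140 tested genes 24 were higher, 50 lower and 66 did not pass (52.9% called, against 39.2% of all tested genes). The lists were chosen with earlier results of these data known, so their shares are descriptions. The shares of each list below stand against 18.5% higher and 20.8% lower among all tested genes. Lipid droplet and lipolysis genes had 1 of 17 higher (5.88%) and 8 lower (47.1%). The higher gene, named after its values were seen, was Hilpda (0.53 ± 0.14). Dgat1 and Dgat2, whose products make the final step to triglyceride, fell by 0.72 ± 0.10 and 1.17 ± 0.12 on the log2 scale (adjusted p = 0.000358 and 5.23e-05), and Abhd5, the coactivator of the lipase ATGL, by 0.74 ± 0.07. Dgat2 had 10.6, 14.9 and 12.2 CPM in resistant libraries, against 25.5, 30.2 and 28.9 CPM in sensitive libraries.

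Glycerolipid synthesis genes had 4 of 18 higher (22.2%, against 18.5% of all tested genes) and 6 lower (33.3%, against 20.8%). The 4 genes of the first acylation of glycerol 3-phosphate did not move together. Gpat3, of the endoplasmic reticulum, had 8.79, 8.28 and 8.89 CPM in resistant libraries, against 1.96, 2.67 and 2.44 CPM in sensitive libraries, a rise of 1.88 ± 0.15 (adjusted p = 7.35e-06). Gpam, a mitochondrial form, rose by 0.54 ± 0.07. Gpat2, named after its values were seen, fell, with 2, 0 and 3 counts in resistant libraries, against 40, 56 and 15 counts in sensitive libraries (adjusted p = 0.00134), and Gpat4 did not pass (0.17 ± 0.08, adjusted p = 0.121). Mboat7, which puts arachidonic acid into phosphatidylinositol, fell by 0.43 ± 0.07.

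Supply of acetyl-CoA and NADPH had 2 of 9 genes higher (22.2%, against 18.5% of all tested genes) and 5 lower (55.6%, against 20.8%). Idh1 (-0.45 ± 0.07), the cytosolic isocitrate dehydrogenase, Me2 (-0.36 ± 0.06), the mitochondrial malic enzyme, and Acss2 (-0.90 ± 0.16), which makes acetyl-CoA from acetate, fell. The 2 higher genes, named after their values were seen, were Me1, another malic enzyme gene, and Acss1 (0.26 ± 0.07). Me1 rose by 1.82 ± 0.34 (adjusted p = 0.00195) from a low level, with means of 1.7 CPM in resistant and 0.482 CPM in sensitive libraries. Mitochondrial fatty acid synthesis and lipoylation had 3 of 8 genes higher (37.5%) and 0 lower. Lipt2, the octanoyl transferase that starts lipoate synthesis, had 31.4, 32.8 and 32.3 CPM in resistant libraries, against 13.9, 14.4 and 15.7 CPM in sensitive libraries, a rise of 1.13 ± 0.08 (adjusted p = 3.73e-06). Lias, the lipoate synthase gene, rose by 0.28 ± 0.07, and Mecr, an enoyl reductase, by 0.27 ± 0.08. The call of Mecr was lost with library totals for scaling and without resistant library 1 or sensitive library 1 or 3 (adjusted p = 0.0604, 0.0806 and 0.0632; range over 14 alternatives 0.0222 to 0.0806).

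Other mitochondrial acyl-CoA enzymes had 3 of 15 higher (20%, against 18.5% of all tested genes) and 5 lower (33.3%, against 20.8%). Ech1, a dienoyl-CoA isomerase (-0.38 ± 0.06), and Acad11 (-0.52 ± 0.09) were lower and the thioesterase gene Acot13 (0.38 ± 0.10) was higher. Of 6 carnitine transport genes 1 was lower (16.7%), the carnitine-acylcarnitine carrier gene Slc25a20 (-0.50 ± 0.12), and 0 were higher. Other transport, binding and activation genes had 3 of 8 higher (37.5%) and 0 lower. Each rose by a small amount: Acbd3 (0.25 ± 0.06), the acyl-CoA binding protein gene Dbi (0.17 ± 0.05) and Got2 (0.19 ± 0.06). The calls of Dbi and Got2 were lost with library totals for scaling. That of Dbi was also lost without resistant library 3 or any 1 of the sensitive libraries (adjusted p = 0.075 to 0.087; range over 14 alternatives 0.0132 to 0.087) and that of Got2 without resistant library 3 or sensitive library 2 or 3 (0.0881 to 0.164; range 0.0121 to 0.164). Further elongation and desaturation genes had 2 of 12 higher (16.7%) and 2 lower (16.7%), close to the shares of all tested genes. Among them were Hacd4, a dehydratase gene of elongation, at -1.31 ± 0.13, Elovl7 at 0.49 ± 0.09 and Fads6 at -0.44 ± 0.09.

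Regulators of the SREBP, LXR, ChREBP and AMPK systems had 2 of 23 higher (8.7%, against 18.5% of all tested genes) and 11 lower (47.8%, against 20.8%). Their median was -0.20. Prkag1, an AMPK subunit gene, rose by 0.33 ± 0.06, while Insig2, which retains SREBP in the endoplasmic reticulum, and Esrra, an orphan receptor of mitochondrial genes, fell by 0.55 ± 0.12 and 0.39 ± 0.09. Of 7 tested targets of PPARs and LXRs, 2 were higher (28.6%) and 4 lower (57.1%). Abcg1, a sterol exporter, had 4.32, 9.24 and 3.16 CPM in resistant libraries, against 17.4, 18.8 and 17.4 CPM in sensitive libraries, and fell by 1.71 ± 0.28 (adjusted p = 0.00104). Mylip, which degrades the LDL receptor, fell by 0.80 ± 0.12 and the uncoupling protein gene Ucp2 by 0.39 ± 0.06. The 2 higher targets, named after their values were seen, were Apoe (0.83 ± 0.14, adjusted p = 0.00125) and Vldlr (1.33 ± 0.30, adjusted p = 0.00581).

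**Figure D4:**
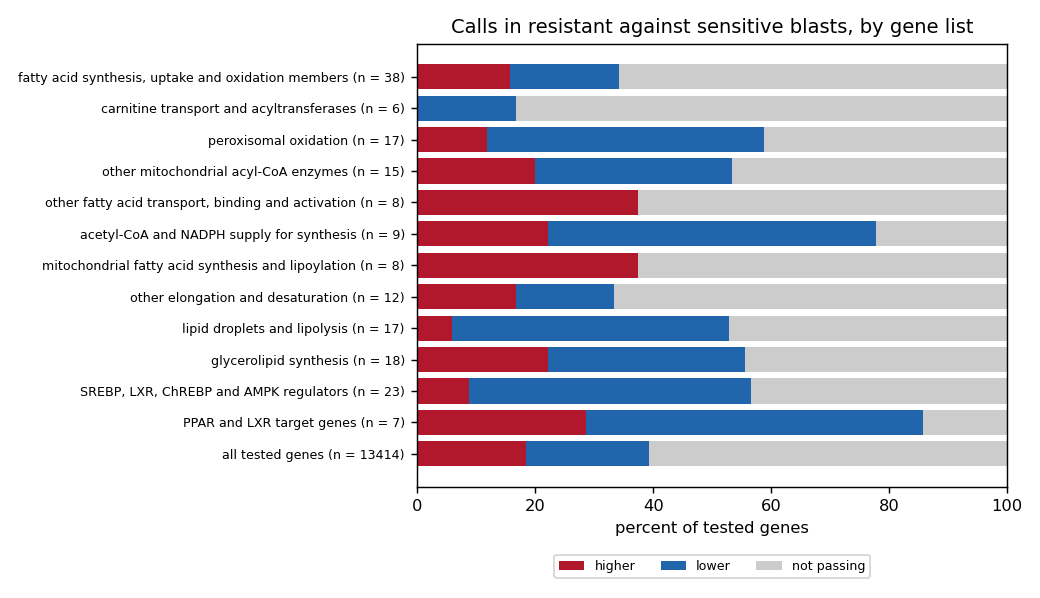
Percent of tested genes called higher, called lower or not passing in resistant against sensitive blasts, for the fatty acid members (n = 38), 11 further lists and all 13414 tested genes. The members' bar (15.8% higher, 18.4% lower) is close to that of all genes (18.5% and 20.8%), and the peroxisomal, lipid droplet and regulator lists hold more lower than higher genes.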

How the data were processed

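RNA of 6 libraries (3 resistant, 3 sensitive) was extracted with a column kit and made into TruSeq libraries, per the labels' protocols. The authors deposited raw counts per Ensembl gene. The submitters' processing notes name TopHat2, RSEM and mm9, without version or role. Whether counting used strand, how reads shared by genes were treated, and whether the counts are rounded estimates are not stated in the sources at hand. All 6 columns matched 1 sample by title. Symbols and exon lengths came from GENCODE M21 (GRCm38), with 31655 IDs matched.

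Low counts were removed by filterByExpr, and TMM-scaled counts were tested across all 13414 genes in edgeR 4.0.16 (R 4.3.3; group as the sole term; Benjamini-Hochberg, threshold 0.05); the procedure was tested on simulated data. SEs derive from the F statistic. Within a group, pairs of libraries differed beyond sampling noise (chi-square over degrees of freedom 3.92 to 13.6). Floors cover counting error only.

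The members and lists were chosen with earlier results of these data known. Of each further list, up to 3 genes past the test with the smallest adjusted p are named, and some further genes are named after their values were seen. Members past the test have values in each library. Alternatives were 3 scalings, 2 filters, DESeq2 1.42.0, limma-voom (limma 3.58.1), the replicate block and each library left out.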

Additional observations from a re-analysis of the deposited data

How the results depend on the processing

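Over 14 alternatives, 7 of the 13 members called kept their call in all of them (Hadh, Echs1, Acaa2, Slc27a1, Acaa1a, Fads1 and Fads2). So did 28 of the 31 genes named from other lists for the smallest adjusted p. With 1 library left out, the number of members higher ran from 4 to 10 and of members lower from 4 to 9, against 6 and 7 with all libraries: 10 were higher without resistant library 1, and 4 were lower without sensitive library 1 or 3. The number of genes called in the whole table ran from 3656 to 5232, against 5260. Of 25 members not passing, 8 passed in at least 1 alternative and 17 in none. No paired design is given by the labels. Same-numbered libraries deviated from their group means with correlations of 0.0368, -0.00563 and -0.0863. These values show no shared replicate effect, but with 3 libraries per group they cannot settle whether the samples were paired. With the replicate block, 7 members were higher, 9 lower and 5321 genes were called in all. Etfb (adjusted p = 0.0265), Scd2 (0.0474) and Elovl5 (0.0181) passed with that block.

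Signs turned for some members that did not pass, most of them near 0. Acsl1 was at 0.00 with RLE factors (0.000107), a CPM filter (0.000109) and DESeq2 (0.000229), and at -0.0274 to 0.0377 with 1 library left out. Acsl5 ran from -0.0779 to 0.0108 and Eci1 from -0.014 to 0.106 with 1 library left out. Cpt1b, not near 0 at 0.22 ± 0.27 with all libraries, ran from -0.15 to 0.47 with 1 library left out. Cpt1a was at -0.0218 with library totals, -0.0779 with the replicate block and -0.0796 with limma-voom, and ran from -0.34 to 0.32 with 1 library left out. With the longest transcript as gene length, 68 of 110 levels and shares per length moved by more than 1 SD; Acsl5 then gave 56.4% of the Acsl transcript in resistant and 56.6% in sensitive libraries. The order of the 43 levels in resistant libraries had a rank correlation of 0.982 between the 2 lengths. Depth limits Cd36, Fabp4, Scd1, Ppara and Ppargc1a, which had at most 9 counts in any library.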
